A study of Mus musculus with 28 samples.

Results

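The collagen genes are the 44 rows of the count table, out of 49492 gene symbols, whose mouse symbol is written as Col, a number, a and a second number. They encode the alpha chains of the collagens, and 33 of the 44 passed the filter on low counts that left 15812 genes to test. The libraries came from epithelial cells that were scraped by hand from the gastric corpus, the acid-secreting body of the stomach, and were sequenced as polyadenylated RNA, 1 library per mouse. WT mice and their villin-PPARD littermates were sampled at 10 weeks (5 and 5 mice), 25 weeks (4 and 4) and 55 weeks (5 and 5). The villin-PPARD transgene carries PPAR delta, a lipid-sensing nuclear receptor, under the promoter of villin, a gene of epithelial cells, so it is directed to epithelial cells, while much of the collagen of a tissue is made by stromal cells. Values are CPM, counts scaled to a library of 1000000 with TMM factors, and a gene was called when the Benjamini-Hochberg adjusted p of edgeR's quasi-likelihood F test was under 0.05 over all 15812 genes. Every log2 difference below is villin-PPARD minus WT unless another contrast is named.

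Collagens are built from 3 alpha chains wound into a triple helix. The fibril-forming chains, such as Col1a1, Col1a2 and Col3a1, make the banded fibers of connective tissue and come mostly from fibroblasts. Type IV chains form the sheet of the basement membrane under every epithelium, type VI forms beaded filaments beside it, type VII anchors the basement membrane to the fibers beneath, and type XVII spans the membrane of basal epithelial cells. The multiplexins, Col15a1 and Col18a1, lie at the outer face of basement membranes, and Col18a1 holds the endostatin fragment. The fibril-associated chains sit on the surface of fibrils, and a few collagens, such as Col13a1 and Col23a1, are transmembrane proteins. The classes used here follow these textbook groups.

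Type IV genes lie in pairs that share a start region, and the pair Col4a3 and Col4a4 is shown because both genes differed between the genotypes at every age. In the GENCODE annotation of GRCm38, Col4a3 spans bases 82586921 to 82722059 of chromosome 1 on the plus strand and Col4a4 spans 82448423 to 82586849 on the minus strand. Their start sites lie 72 bases apart, head to head. The 71 bases between the genes (69.0% G and C) are printed on the Col4a4 strand from the RefSeq promoter table of GRCm38.p6, and held no match to any motif searched.
Col4a3 and Col4a4 shared start region, chr1:82586850-82586920, minus strand: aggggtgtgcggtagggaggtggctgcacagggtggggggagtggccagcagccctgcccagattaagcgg
The 250 bases upstream of the RefSeq start of Col7a1, the anchoring-fibril gene that was lower at every age, and of the outer start of Col18a1, the multiplexin that was higher at every age, are shown with matches to the motifs on either strand in capitals. Of the Col18a1 stretch, 18 bases lie in an annotated exon, and of the Col7a1 stretch none do.
Col7a1 upstream, chr9:108953336-108953585, plus strand: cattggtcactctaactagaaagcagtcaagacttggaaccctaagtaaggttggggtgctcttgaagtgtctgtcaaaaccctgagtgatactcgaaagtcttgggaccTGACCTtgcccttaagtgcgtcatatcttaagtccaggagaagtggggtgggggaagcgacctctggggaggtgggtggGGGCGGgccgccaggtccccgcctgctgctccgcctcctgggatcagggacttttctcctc
Col18a1 upstream, chr10:77166531-77166780, minus strand: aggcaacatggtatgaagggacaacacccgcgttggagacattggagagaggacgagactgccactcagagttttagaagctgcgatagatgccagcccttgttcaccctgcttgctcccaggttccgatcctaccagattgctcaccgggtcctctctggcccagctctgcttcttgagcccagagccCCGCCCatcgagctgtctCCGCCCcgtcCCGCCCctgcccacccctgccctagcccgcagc
The motifs were AGGTCA (the nuclear receptor half-site), GGGCGG (the GC box) and TATAAA (the TATA box). The Col7a1 stretch held 1 match to the half-site and 1 to the GC box, and the Col18a1 stretch held 3 GC boxes. The 250 bases upstream of the Col4a4 start, which include the 71 printed, held 1 half-site outside those 71. In windows of 300 bases around the starts, 8 of 38 windows of 35 collagen genes held AGGTCA (21.05%), against 16.26% of 32851 windows in the table. GGGCGG was in 60.53% of collagen windows and 35.66% of all, and TATAAA in 13.16% and 13.62%. The PPAR response element called DR1, in which 2 half-sites follow each other with 1 base between them and which therefore contains AGGTCA, was in none of the 38 collagen windows and in 0.03957% of all. These are matches of letters, not measured sites.

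Total counts ran from 10982888 to 30891108 per library, and collagen genes took between 0.0245% and 0.183% of them. The row for Ppard was higher in villin-PPARD mice by 0.56, 0.31 and 0.23 (log2) at 10, 25 and 55 weeks, and whether transgene reads fall in that row is not given in the sources used here. Fibroblast marker levels differed among libraries. The summed CPM of 15 fibroblast markers that are not collagens was lowest in WT replicate 1 at 10 weeks (41.5) and highest in WT replicate 4 at 25 weeks (185), and villin-PPARD replicate 3 at 25 weeks was the lowest of its group (63.4). WT replicates 2 and 3 at 10 weeks were closer to each other (chi-square of 4.12 per degree of freedom) than any other pair of a group (14.3 to 156.5). The main fit counted them as 2 mice. With the 2 summed into 1 library, edgeR no longer called Col12a1 (1.11, adjusted p = 0.0591) or Col7a1 (-0.91, adjusted p = 0.0546) at 10 weeks. No other collagen call of that age changed. The column names mark a first set of libraries (10-week replicates 1 to 3 and the 25-week libraries except WT replicate 3) and a second (10-week replicates 4 and 5 and all 55-week libraries), so the change from 25 to 55 weeks lies across these sets in all libraries but WT replicate 3 of 25 weeks, and the change from 10 to 55 weeks in part. Corpus epithelial markers, 14 genes including Atp4a of the parietal cell proton pump, summed to 280800 CPM in WT mice at 10 weeks, and in villin-PPARD mice at 55 weeks to 62607 CPM against 236650 CPM in WT.

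Collagen genes moved in both directions. At 10 weeks 6 of the 33 tested were higher in villin-PPARD mice and 5 lower, at 25 weeks 4 were higher and 7 lower, and at 55 weeks 7 were higher and 11 lower. Of all genes tested, 17.9% were called higher and 16.2% lower at 10 weeks. At 25 weeks 21% of all genes were higher and 18.6% lower, and at 55 weeks 31.7% higher and 27.6% lower. These shares are also the background for the genotype calls of each gene list below. The collagen shares were 18.2% and 15.2%, then 12.1% and 21.2%, then 21.2% and 33.3%, near the shares of all genes at 10 weeks, with fewer higher calls than all genes at 25 and 55 weeks. Libraries of the 2 genotypes did not overlap for 9, 5 and 17 of the 33 at the 3 ages, against 25.6%, 27.3% and 43.3% of all genes. The median collagen log2 difference was 0.20, 0.06 and -0.37, beside -0.03, -0.01 and 0.03 over all genes. Scaled by library size alone, the median of all genes at 55 weeks moved to 0.43, 78.9% rather than 53.4% of all calls were higher, and 12 collagen genes were higher and 8 lower. Without villin-PPARD replicate 3 of 25 weeks 8 collagen genes were higher at that age in place of 4, Col1a1, Col4a1, Col4a2 and Col5a2 being added, and without replicate 4 of that group 2 were. At 25 weeks the same scaling gave an all-gene median of 0.15 and 74.5% rather than 53% of calls higher.

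Col18a1, Col12a1 and Col6a4 were higher in villin-PPARD mice at all 3 ages. Lower at all 3 were Col4a3, Col4a4, Col7a1, Col20a1 and Col27a1. A pair changed sides between ages: Col9a3 was higher at 10 weeks and lower at 55 weeks, and Col14a1 was lower at 25 weeks and higher at 55 weeks. A further 10 were called at some ages in 1 direction, and 13 at none, among them Col1a1, Col1a2, Col3a1, Col5a1, Col5a2, Col6a1 and Col6a2.

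**Figure D1:**
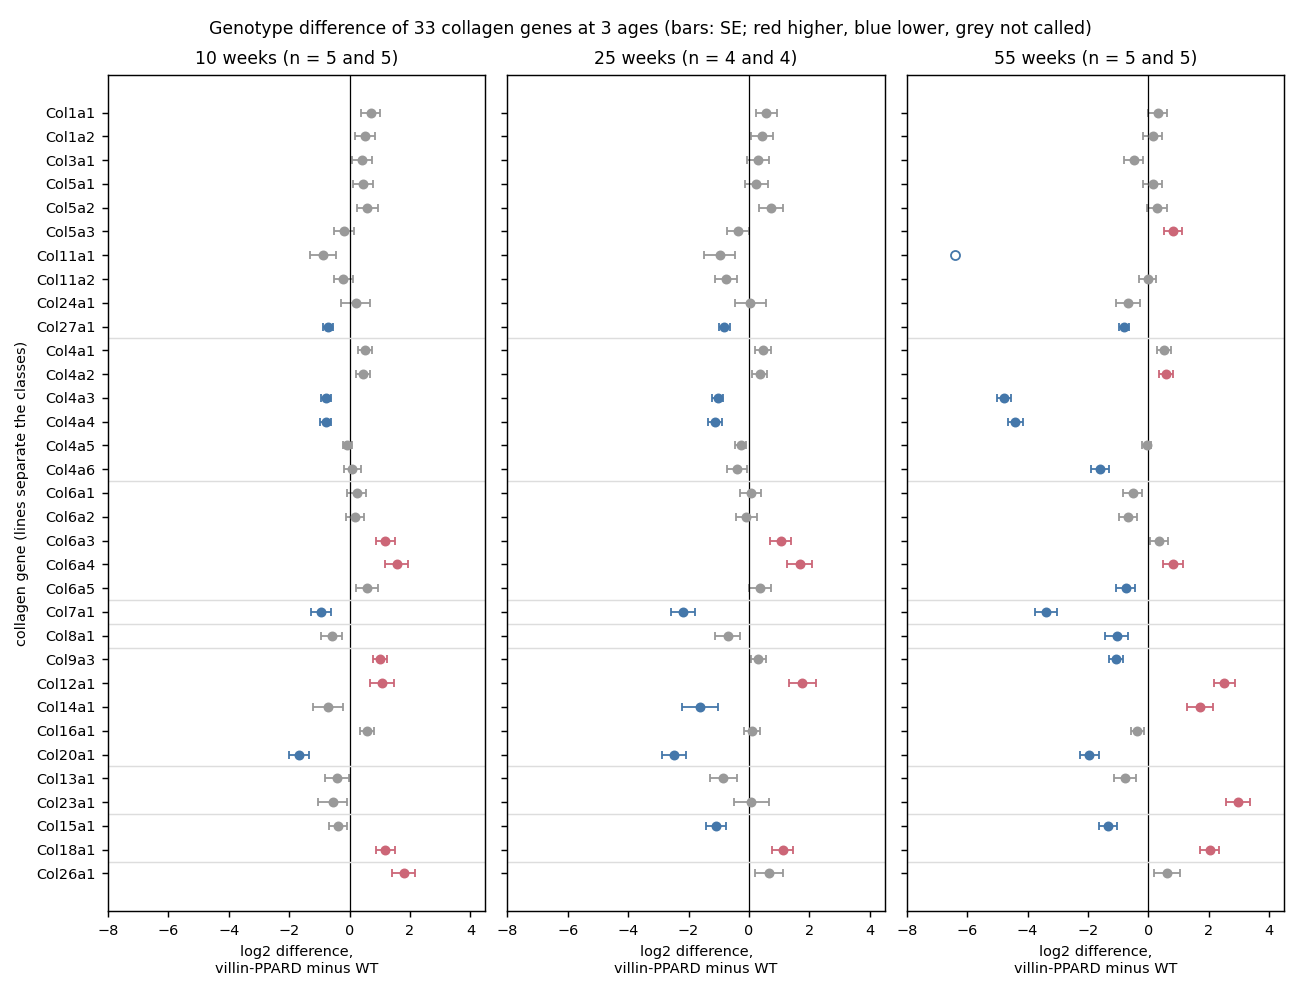
Log2 difference, villin-PPARD minus WT, of the 33 collagen genes tested at 10, 25 and 55 weeks, with bars for the SE. Red points were called higher, blue lower and grey not called, and grey lines separate the classes. The open point is Col11a1 at 55 weeks, which had no counts in the villin-PPARD libraries, so its fitted value is not a bound. Col4a3, Col4a4 and Col7a1 lie farthest to the left of the filled points at 55 weeks, and Col23a1, Col12a1 and Col18a1 farthest to the right.

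Within the library sets the 10-week differences kept their signs for all 11 called genes. Col6a3 was at 1.47 and not called in the first set (adjusted p = 0.0939), and its lowest value over all alternatives was 0.845. The values of the other 10 follow. In the first and the second set, Col18a1 was at 1.66 and 0.67, Col6a4 at 1.71 and 1.36, Col12a1 at 1.52 and 0.41, Col9a3 at 0.90 and 1.22, and Col26a1 at 1.87 and 1.74. Of the lower genes, Col4a3 was at -0.84 and -0.64, Col4a4 at -0.89 and -0.61, Col7a1 at -0.63 and -1.33, Col20a1 at -1.68 and -1.60, and Col27a1 at -0.59 and -0.84. With 3 and 2 mice a group, edgeR called 3 collagen genes higher (Col9a3, Col16a1 and Col26a1) and 3 lower (Col4a3, Col4a4 and Col20a1) in the first set. In the second it called 3 higher (Col6a3, Col6a4 and Col18a1) and 2 lower (Col15a1 and Col27a1). The sets shared no called gene, and Col15a1 and Col16a1 were not called at 10 weeks in the main fit. In the first set Col18a1 (adjusted p = 0.0531) and Col6a4 (adjusted p = 0.0793) were not called. Genes not called at 10 weeks did not all keep their signs. In the first set Col3a1 measured 87.7, 114 and 143 CPM in villin-PPARD against 32.1, 67.03 and 68.3 CPM in WT mice. In the second set it measured 114 and 76.2 CPM against 112 and 125 CPM. Over all alternatives the 10-week value ran from -0.32 to 1.08 for Col3a1, -0.54 to 0.885 for Col6a1 and -1.01 to 0.19 for Col15a1. At 25 weeks all libraries but WT replicate 3 are of the first set, within which 1 gene was called higher in place of 4 and Col18a1 was at 1.12 (adjusted p = 0.110) and Col12a1 at 1.88 (adjusted p = 0.0587). The 55-week libraries are all of the second set.

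The main fibrillar collagens did not pass edgeR's test between the genotypes over all libraries at any age. Col1a1, the alpha 1 chain of type I collagen, measured 26.8, 56.8, 57.99, 78.4 and 92.9 CPM in the WT and 82.6, 106, 133, 112 and 73.03 CPM in the villin-PPARD libraries at 10 weeks. By 25 weeks Col1a1 measured 44.03, 54.9, 80.5 and 135 CPM in the WT and 135, 121, 46.4 and 166 CPM in the villin-PPARD libraries. At 55 weeks Col1a1 measured 119.7, 99.3, 147, 134 and 133 CPM in the WT and 125, 150.3, 194, 166 and 146 CPM in the villin-PPARD libraries. The groups overlapped at each age, and the log2 differences were 0.70, 0.57 and 0.31 with adjusted p of 0.0838, 0.201 and 0.406. Other settings called Col1a1 higher: at 10 weeks limma-voom (0.72, adjusted p = 0.0167) and edgeR without WT replicate 5 (0.89, adjusted p = 0.0394), at 25 weeks edgeR without WT replicate 4 (0.96, adjusted p = 0.0362) or villin-PPARD replicate 3 (0.80, adjusted p = 0.0480), and at 55 weeks edgeR with library size alone (0.70, adjusted p = 0.0447). Its partner Col1a2 measured 26.7, 53.7, 57.6, 80.7 and 91.97 CPM in the WT and 76.6, 92.3, 115, 96.1 and 60.1 CPM in the villin-PPARD libraries at 10 weeks. For Col1a2 at 25 weeks the libraries held 37.7, 52.2, 74.03 and 128 CPM in the WT and 112, 113, 40.4 and 131 CPM in the villin-PPARD libraries. For Col1a2 at 55 weeks they held 126, 99.6, 128, 117 and 114 CPM in the WT and 91.6, 119, 196, 120.1 and 115 CPM in the villin-PPARD libraries. Villin-PPARD replicate 3 at 55 weeks stood above the other 4 for this gene, and no difference was called (adjusted p = 0.236, 0.358 and 0.735). In counts, Col1a1 to Col1a2 stayed between 0.951 and 1.38 in all 28 libraries.

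Col3a1, the single chain of type III collagen, measured 32.1, 67.03, 68.3, 112 and 125 CPM in the WT and 87.7, 114, 143, 114 and 76.2 CPM in the villin-PPARD libraries at 10 weeks. By 25 weeks Col3a1 measured 45.1, 73.9, 93.4 and 159 CPM in the WT and 133, 146, 47.9 and 132 CPM in the villin-PPARD libraries. At 55 weeks Col3a1 measured 155, 139.8, 167, 154 and 137 CPM in the WT and 75.5, 101, 156, 99.3 and 104 CPM in the villin-PPARD libraries. Here 4 of the 5 villin-PPARD libraries at 55 weeks lay under every WT library and the other reached 156, and the log2 difference was -0.49 ± 0.33 (SE), adjusted p = 0.2, so it was not called. Fitted on the groups of that age alone it was -0.53 and called (adjusted p = 0.00693), and so it was within the second library set (-0.49, adjusted p = 0.0113). Relative to Col1a1, the counts of Col3a1 were 1.21 ± 0.148 (SD, n = 5) in WT and 0.677 ± 0.0845 (SD, n = 5) in villin-PPARD mice at 55 weeks, with ranges of 1.03 to 1.41 and 0.598 to 0.802 that did not overlap. At 10 weeks this ratio was 1.27 ± 0.117 in WT and 1.05 ± 0.0285 in villin-PPARD mice.

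The summed level of the fibroblast markers was 88.5 ± 32.99 CPM in WT against 86.6 ± 37.02 in villin-PPARD mice at 10 weeks (SD). At 25 weeks it was 113 ± 60.4 against 96.1 ± 24.3, and at 55 weeks 151 ± 15.1 against 136 ± 18.5. Of 13 fibroblast markers tested, 1 was lower at 10 weeks, 4 were lower at 25 weeks, and at 55 weeks 8 were lower and 1, Thy1, was higher. The median log2 differences of the 13 were -0.226, -0.822 and -1.207 at 10, 25 and 55 weeks, although the sums overlapped at each age. The sum thus did not follow the median marker, and the ratios and the fit term below rest on the sum. In a bulk sample, fewer cells of a type and less RNA per cell cannot be told apart. Per unit of the marker sum, Col1a1 was 0.701 ± 0.0677 in WT and 1.24 ± 0.214 in villin-PPARD mice at 10 weeks, with WT values up to 0.802 and villin-PPARD values from 0.905. At 25 weeks it was 0.746 ± 0.213 against 1.18 ± 0.396, and at 55 weeks 0.847 ± 0.159 against 1.16 ± 0.225, with overlap at both later ages. With the log2 marker sum as a term in the fit, an alternative added after the data were seen, 15 collagen genes in place of 6 were higher at 10 weeks and 8 in place of 4 at 25 weeks, Col1a1 at 0.70 becoming 0.80 and called. Col1a1 was also called with this term at 55 weeks (0.43, adjusted p = 0.0411). The part of connective tissue content in the results was otherwise not tested.

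**Figure D2:**
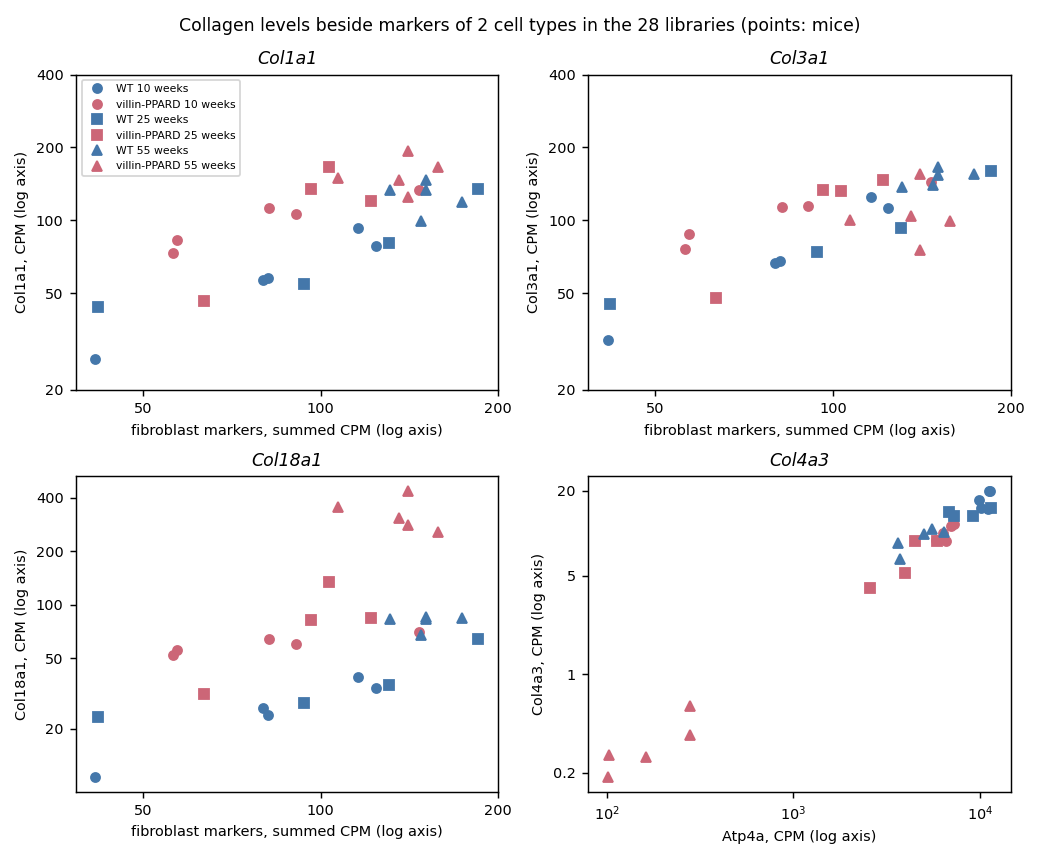
Levels of Col1a1, Col3a1 and Col18a1 against the summed CPM of the fibroblast markers, and of Col4a3 against Atp4a, in the 28 libraries on log axes. Blue is WT and red villin-PPARD, with circles for 10, squares for 25 and triangles for 55 weeks, and each point is a mouse. The Col18a1 points of villin-PPARD mice at 55 weeks (257 to 438 CPM) lie above all others at like marker sums, and Col4a3 is low in the libraries in which Atp4a is low.

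The other fibril-forming chains include minor partners of the main fibrils. Col27a1, a fibrillar collagen best known from cartilage, was lower at all 3 ages. It measured 8.66, 14, 14.7, 11.5 and 14.4 CPM in the WT and 6.62, 8.63, 8.998, 7.51 and 6.82 CPM in the villin-PPARD libraries at 10 weeks. By 25 weeks Col27a1 measured 14.7, 10.9, 13.1 and 13.2 CPM in the WT and 4.92, 7.81, 8.26 and 8.71 CPM in the villin-PPARD libraries. At 55 weeks Col27a1 measured 9.81, 10.8, 15.1, 14.6 and 15.4 CPM in the WT and 9.26, 7.37, 7.82, 7.67 and 5.51 CPM in the villin-PPARD libraries. The genotypes overlapped by 1 WT library at 10 weeks and not at the later ages, and the log2 differences were -0.70 ± 0.17 (SE), adjusted p = 0.00158, then -0.82 ± 0.19 (SE), adjusted p = 0.00105, then -0.80 ± 0.16 (SE), adjusted p = 0.000108. Under library size alone the 55-week value of Col27a1 was -0.39 and not called (adjusted p = 0.0547).

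Col11a1, a chain of type XI collagen that seeds fibrils, was found at 55 weeks in every WT library and in no villin-PPARD library. Col11a1 measured 0.476, 0.689, 0.509, 0.469 and 0.42 CPM in the WT and 0.252, 0.36, 0.401, 0.263 and 0.11 CPM in the villin-PPARD libraries at 10 weeks. By 25 weeks Col11a1 measured 0.489, 0.833, 0.54 and 0.162 CPM in the WT and 0.0478, 0.228, 0.449 and 0.223 CPM in the villin-PPARD libraries. At 55 weeks Col11a1 measured 0.250, 0.813, 0.535, 0.453 and 0.615 CPM in the WT libraries and 0 in all 5 villin-PPARD libraries. That is 42 counts over the WT group against 0, at least 25.0-fold lower when 3 counts are allowed over the villin-PPARD group. The adjusted p of edgeR's test was 9.1e-08. Col11a1 passed the filter on low counts only through WT libraries, where its level was high. That p is therefore not independent of the filter. The WT and villin-PPARD libraries did not overlap at 10 weeks either, but the main fit made no call at 10 or 25 weeks (adjusted p = 0.123 and 0.139). Limma-voom called Col11a1 lower at 10 weeks (-1.05, adjusted p = 0.0174) and 25 weeks (-1.33, adjusted p = 0.0316). EdgeR called it at 25 weeks without villin-PPARD replicate 3 (-1.59, adjusted p = 0.0325). These were 1 of 19 alternatives at 10 weeks and 2 of 17 at 25 weeks. Col5a3, a type V chain, rose at 55 weeks (0.80 ± 0.30 (SE), adjusted p = 0.0251) and lost this call without any of 4 of the 10 libraries. The remaining fibril-forming genes tested, Col5a1, Col5a2, Col11a2 and Col24a1, were called at no age.

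Type IV chains of the basement membrane split by pair. Of the Col4a1 and Col4a2 chains, present in every basement membrane, the main fit called only Col4a2, higher at 55 weeks. The Col4a3 and Col4a4 chains fell at each age and most at 55 weeks. Col4a3 measured 15.1, 19.9, 19.98, 17.2 and 14.9 CPM in the WT and 8.82, 11.3, 9.98, 9 and 11.6 CPM in the villin-PPARD libraries at 10 weeks. By 25 weeks Col4a3 measured 15.2, 14.2, 13.2 and 13.3 CPM in the WT and 5.21, 8.78, 8.8 and 4.1 CPM in the villin-PPARD libraries. At 55 weeks Col4a3 measured 6.61, 8.57, 10.8, 10.2 and 9.91 CPM in the WT and 0.37, 0.591, 0.27, 0.186 and 0.261 CPM in the villin-PPARD libraries. Not 1 library overlapped between genotypes at any age, and Col4a3 was 1.72-fold lower at 10 weeks (-0.79 ± 0.17 (SE), adjusted p = 0.000581), 2.06-fold at 25 weeks (-1.04 ± 0.19 (SE), adjusted p = 0.000119) and 27.7-fold at 55 weeks (-4.79 ± 0.24 (SE), adjusted p = 4.61e-16).

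Col4a4, whose product joins that of Col4a3 and Col4a5 in 1 helix, followed the same course. Col4a4 measured 14.9, 18.6, 17.5, 17.9 and 15.5 CPM in the WT and 9.52, 8.93, 8.46, 9.83 and 12.2 CPM in the villin-PPARD libraries at 10 weeks. By 25 weeks Col4a4 measured 16.6, 12.6, 12.2 and 13.2 CPM in the WT and 6.74, 7.3, 7.5 and 3.2 CPM in the villin-PPARD libraries. At 55 weeks Col4a4 measured 6.81, 8.06, 12.03, 9.78 and 7.38 CPM in the WT and 0.541, 0.728, 0.116, 0.373 and 0.314 CPM in the villin-PPARD libraries. Its libraries did not overlap either, with log2 differences of -0.79 ± 0.19 (SE), adjusted p = 0.0017, then -1.12 ± 0.22 (SE), adjusted p = 0.000185, then -4.41 ± 0.26 (SE), adjusted p = 1.37e-14. The counts of Col4a3 to Col4a4 were near 1 in all groups, with means from 1.03 to 1.11, a range of 0.773 to 1.28 over the libraries of 10 and 25 weeks, and a range of 0.5 to 2.33 in villin-PPARD mice at 55 weeks, where counts were few. Per kilobase of exon, both chains together made up 20.4% of type IV CPM in WT mice at 10 weeks and 8.46% in WT mice at 55 weeks, and 0.287% ± 0.160 (SD, n = 5) in villin-PPARD mice at 55 weeks. The change of the genotype difference from 10 to 55 weeks was -4.01 for Col4a3 and -3.62 for Col4a4, and both also fell with age in WT mice (-0.93 and -0.95, 55 against 10 weeks, adjusted p = 0.000773 and 0.00163). Col4a3 overlaps the noncoding gene C430014B12Rik on the other strand over 563 exon bases, and the library kit does not mark strand.

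Atp4a, the catalytic chain of the gastric proton pump in parietal cells, moved beside these chains in every group. Its log2 differences were -0.70, -1.04 and -4.72 at the 3 ages, against -0.79, -1.04 and -4.79 for Col4a3. Col4a3 gave 1.63 ± 0.198 counts for each 1000 counts of Atp4a in WT mice at 10 weeks and 1.54 ± 0.110 in villin-PPARD mice (SD, n = 5 each). The same ratio was 1.66 ± 0.340 and 1.59 ± 0.271 at 25 weeks (n = 4 each) and 1.93 ± 0.285 and 1.91 ± 0.501 at 55 weeks (n = 5 each). Over all 28 libraries it stayed between 1.32 and 2.63, while Col4a3 itself ran from 0.186 to 19.98 CPM. For Col4a4 it lay between 1.13 and 3.69. This ratio was chosen after the values of both genes were seen, and whether the same cells hold these transcripts was not tested.

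**Figure D3:**
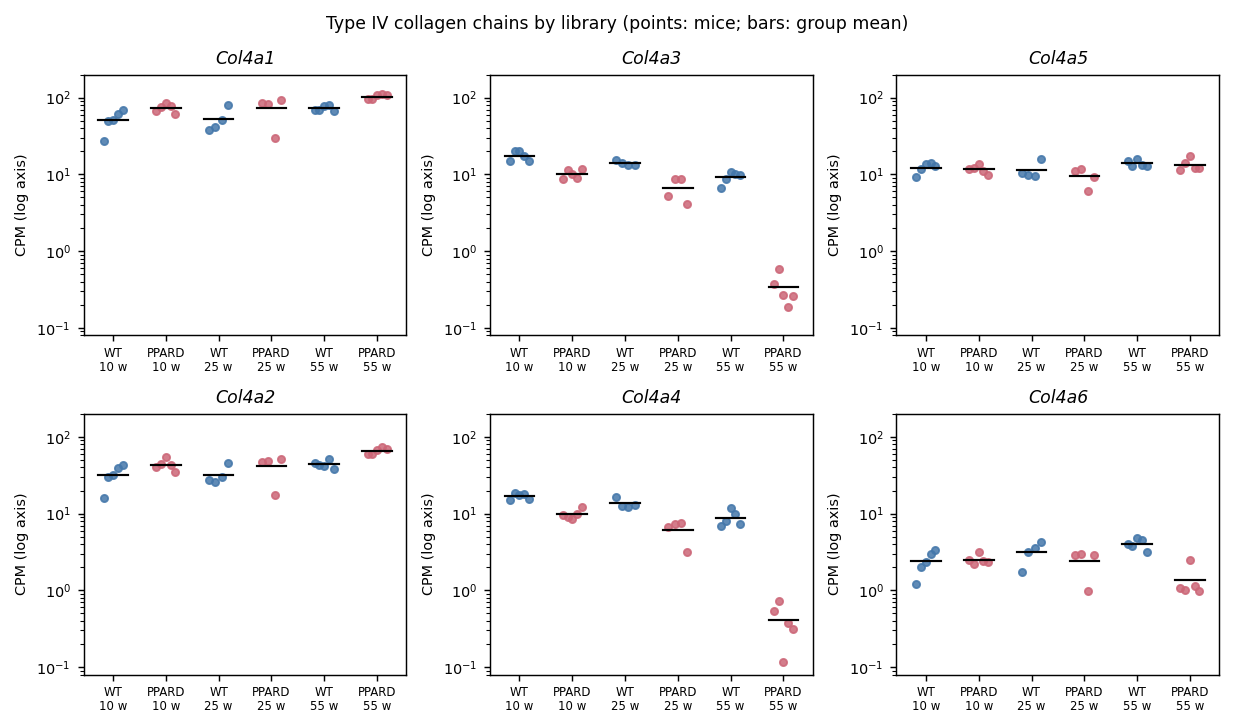
CPM of the 6 type IV chains in each library on 1 shared log scale, with WT in blue, villin-PPARD in red and a bar at each group mean. Genes that share a start region stand in pairs, Col4a1 over Col4a2, Col4a3 over Col4a4 and Col4a5 over Col4a6. Col4a3 and Col4a4 of the 55-week villin-PPARD mice (0.116 to 0.728 CPM) lie below every other point of both genes, while Col4a5 spans 6.06 to 17.3 CPM in all libraries.

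Col4a1 measured 27, 49.7, 50.5, 60.96 and 69.9 CPM in the WT and 67, 75.3, 85.9, 77.4 and 61.7 CPM in the villin-PPARD libraries at 10 weeks. By 25 weeks Col4a1 measured 37.7, 41.4, 50.8 and 79.5 CPM in the WT and 86.3, 82.02, 29.6 and 92.6 CPM in the villin-PPARD libraries. At 55 weeks Col4a1 measured 68.2, 69.3, 77.3, 80.4 and 66.4 CPM in the WT and 94.97, 95.7, 108, 111 and 107 CPM in the villin-PPARD libraries. All 5 villin-PPARD libraries lay above the WT ones at 55 weeks, but the log2 difference of 0.52 ± 0.23 (SE), adjusted p = 0.0592 was not called. It was called at 55 weeks with limma-voom (0.52, adjusted p = 0.0211), with only the groups of that age (0.48, adjusted p = 0.000242), with library size alone (0.92, adjusted p = 0.000864) and with the fibroblast term (0.60, adjusted p = 0.00119). Limma-voom also called Col4a1 higher at 10 weeks (0.52, adjusted p = 0.0154) and 25 weeks (0.58, adjusted p = 0.0257). In all, 3 of 22 alternatives called it at 10 weeks and 4 of 19 at 25 weeks. Col4a2, which overlaps Col4a1 by 22 bases at its start, measured 16.1, 30.4, 31.8, 38.8 and 43.1 CPM in the WT and 41.03, 44.1, 54.1, 43.4 and 34.9 CPM in the villin-PPARD libraries at 10 weeks. For Col4a2 at 25 weeks the libraries held 27.2, 25.5, 30.1 and 45.9 CPM in the WT and 46.8, 48.9, 17.3 and 52.2 CPM in the villin-PPARD libraries. For Col4a2 at 55 weeks they held 46.2, 43.5, 41.8, 51.4 and 38.1 CPM in the WT and 59.2, 60.3, 66.7, 73.8 and 70.3 CPM in the villin-PPARD libraries. Its 55-week rise (0.58 ± 0.23 (SE), adjusted p = 0.0322) was called, and the call was lost without any of 6 of the 10 libraries. In the main fit Col4a2 had no call at the earlier ages (adjusted p = 0.137 and 0.297). Of the alternatives, 2 of 22 called it higher at 10 weeks, limma-voom among them (0.44, adjusted p = 0.0432), and 1 of 19 at 25 weeks. Counts of Col4a1 to Col4a2 ran from 1.39 to 1.85 over all libraries.

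Col4a5 and Col4a6, head to head on the X chromosome, parted at 55 weeks. Col4a6 measured 4.05, 3.84, 4.81, 4.48 and 3.2 CPM in the WT and 1.08, 1, 2.5, 1.15 and 0.993 CPM in the villin-PPARD libraries at that age, 3.04-fold lower in villin-PPARD mice (-1.60 ± 0.29 (SE), adjusted p = 2.35e-05) with no overlap. Col4a5 at 55 weeks measured 14.9, 12.9, 15.8, 13.2 and 12.7 CPM in the WT and 11.4, 14.01, 17.3, 12.2 and 11.99 CPM in the villin-PPARD libraries, a log2 difference of -0.06 ± 0.16 (SE), adjusted p = 0.774. Under library size alone Col4a5 was at 0.34 and called, so its sign depended on the scaling. Of 11 smooth muscle markers, a set of cells that also makes Col4a6, none were called at 10 weeks, 1 was lower at 25 weeks and 5 were lower at 55 weeks, with a sum of 117 ± 22.2 CPM in WT and 81.8 ± 12.96 in villin-PPARD mice at 55 weeks, and their part in the Col4a6 value was not tested.

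The basement membrane partners of type IV collagen, 13 laminin, nidogen and proteoglycan genes, were called higher for 4, 3 and 4 and lower for 1, 4 and 5 at 10, 25 and 55 weeks. Their median log2 differences were 0.30, 0.37 and 0.06, beside -0.03, -0.01 and 0.03 over all genes. Agrn, which encodes the proteoglycan agrin, rose by 1.29, 1.01 and 0.88 (log2, adjusted p = 8.9e-11, 1.33e-07 and 3.17e-08). Lamb2, the laminin beta 2 chain, was lower by 1.51-fold, 2.04-fold and 2.87-fold. Lama5, the main laminin alpha chain of mature epithelial basement membranes, was 2.59-fold higher at 55 weeks.

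Of the type VI chains tested, Col6a4 was called at all 3 ages, Col6a3 and Col6a5 at some, and Col6a1 and Col6a2 at none. Col6a1 measured 11.1, 20.9, 22.4, 34.1 and 38.3 CPM in the WT and 23.6, 33.3, 40.9, 28.5 and 21.02 CPM in the villin-PPARD libraries at 10 weeks. By 25 weeks Col6a1 measured 15.3, 27.1, 36.6 and 49.9 CPM in the WT and 36.6, 42.8, 16.4 and 39.4 CPM in the villin-PPARD libraries. At 55 weeks Col6a1 measured 49.3, 46.4, 57.3, 49.7 and 49.2 CPM in the WT and 25.9, 31.2, 60.3, 29.3 and 29.4 CPM in the villin-PPARD libraries. The other 4 villin-PPARD libraries at 55 weeks lay under every WT library while replicate 3 lay above them, and Col6a1 was called at no age (adjusted p = 0.608, 0.913 and 0.159). Without that replicate Col6a1 was at -0.81 and called (adjusted p = 0.0314). Col6a2, its neighbor on chromosome 10, measured 12.2, 26.4, 24.5, 35.5 and 40.4 CPM in the WT and 24.8, 34.5, 44.2, 30.5 and 21.3 CPM in the villin-PPARD libraries at 10 weeks. For Col6a2 at 25 weeks the libraries held 19.1, 29.5, 39.1 and 51.7 CPM in the WT and 36.2, 42.9, 16.3 and 36.7 CPM in the villin-PPARD libraries. For Col6a2 at 55 weeks they held 49.1, 47.8, 64.2, 53.7 and 46.8 CPM in the WT and 24.6, 30.8, 55.1, 25.7 and 28.1 CPM in the villin-PPARD libraries. The 55-week log2 difference of Col6a2 was -0.67 ± 0.30 (SE), adjusted p = 0.0565, with the same replicate standing apart, and was called without it (-0.95, adjusted p = 0.00930) and with DESeq2's size factors in edgeR (-0.70, adjusted p = 0.0475). Limma-voom called both lower at 55 weeks (adjusted p = 0.0283 for Col6a1 and 0.00724 for Col6a2).

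Col6a4, a long chain that can take the place of the alpha 3 chain, was higher at all 3 ages. Col6a4 measured 0.909, 3.13, 3.18, 2.24 and 2.94 CPM in the WT and 5.23, 7.38, 10.2, 7.55 and 5.39 CPM in the villin-PPARD libraries at 10 weeks. By 25 weeks Col6a4 measured 2.02, 1.77, 3.29 and 4.58 CPM in the WT and 10.8, 12.3, 2.38 and 13.6 CPM in the villin-PPARD libraries. At 55 weeks Col6a4 measured 9.21, 9.68, 8.29, 9.19 and 11.6 CPM in the WT and 15.4, 13.3, 28.4, 14.5 and 12.5 CPM in the villin-PPARD libraries. Col6a4 shares 289 exon bases with genes on the other strand. The rise was 2.94-fold (1.55 ± 0.37 (SE), adjusted p = 0.00217), 3.2-fold (1.68 ± 0.41 (SE), adjusted p = 0.00219) and 1.75-fold (0.81 ± 0.33 (SE), adjusted p = 0.0357), and only villin-PPARD replicate 3 at 25 weeks overlapped WT. At 55 weeks the call was lost without any of 5 of the 10 libraries, with a log2 difference down to 0.52. Col6a3, the usual partner of Col6a1 and Col6a2, measured 2.94, 7.48, 7.72, 8.81 and 8.32 CPM in the WT and 11.03, 15.6, 22.01, 16.9 and 13.8 CPM in the villin-PPARD libraries at 10 weeks, 2.28-fold higher (1.19 ± 0.31 (SE), adjusted p = 0.00493). Col6a3 was also called at 25 weeks (1.05 ± 0.35 (SE), adjusted p = 0.0185), where 5 of 8 left-out libraries ended the call, and not at 55 weeks (0.35 ± 0.29 (SE), adjusted p = 0.31). Col6a5, which lies beside Col6a4 on chromosome 9, was lower at 55 weeks (-0.76 ± 0.32 (SE), adjusted p = 0.0431), a call that 8 of 10 left-out libraries ended, and Col6a6 did not pass the filter.

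Col7a1, the only chain of type VII collagen and of the anchoring fibrils, fell at each age. Col7a1 measured 7.7, 13.5, 15.5, 13.3 and 18.3 CPM in the WT and 5.48, 11.03, 6.59, 5.71 and 6.82 CPM in the villin-PPARD libraries at 10 weeks. By 25 weeks Col7a1 measured 11.4, 18.8, 13.7 and 14.4 CPM in the WT and 2.01, 3.82, 4.49 and 2.31 CPM in the villin-PPARD libraries. At 55 weeks Col7a1 measured 4.45, 19.96, 18.3, 13.8 and 12.6 CPM in the WT and 1.97, 0.955, 0.308, 1.94 and 1.2 CPM in the villin-PPARD libraries. The genotypes overlapped at 10 weeks and not later, and Col7a1 was 1.91-fold lower (-0.94 ± 0.33 (SE), adjusted p = 0.0306), then 4.53-fold (-2.18 ± 0.40 (SE), adjusted p = 0.000142), then 10.5-fold (-3.39 ± 0.38 (SE), adjusted p = 2.04e-08). At 10 weeks the call was lost without any of 6 of the 10 libraries, and with WT replicates 2 and 3 summed (-0.91, adjusted p = 0.0546). The difference was larger at 55 than at 10 weeks by -2.46 (log2, adjusted p = 0.000321), and WT levels at these ages did not differ by the test (0.01, adjusted p = 0.992).

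Squamous epithelium, which lines the mouse forestomach, is known to make Col7a1 and Col17a1. The 14 squamous markers summed to 160 ± 30.1 CPM in WT against 122 ± 3.34 in villin-PPARD mice at 10 weeks (SD). At 25 weeks the sums were 166 ± 32.2 against 205 ± 62.9, at 55 weeks 264 ± 48.7 against 246 ± 79.9, and their ranges at 55 weeks, 217 to 321 and 156 to 363, overlapped. Of the 11 tested, none were higher and 1 lower at 10 weeks, 1 higher at 25 weeks, and 2 higher and 5 lower at 55 weeks. Their median log2 differences were -0.464, -0.014 and -0.654 at the 3 ages, although the sums overlapped at 55 weeks. The part of squamous cells in the Col7a1 values was not tested. Col17a1 did not pass the filter: it had 0 to 12 counts in 26 libraries, and 91 and 24 counts in villin-PPARD replicates 1 and 4 at 55 weeks. In CPM, Col17a1 gave 0, 0.318, 0.127, 0.0521 and 0 CPM in the WT and 0.063, 0.06, 0.0445, 0.0439 and 0.055 CPM in the villin-PPARD libraries at 10 weeks. By 25 weeks Col17a1 gave 0, 0, 0 and 0.0539 CPM in the WT and 0.0478, 0.285, 0.0898 and 0 CPM in the villin-PPARD libraries. At 55 weeks Col17a1 gave 0.601, 0.296, 0.0891, 0.0453 and 0.246 CPM in the WT and 2.59, 0.136, 0.077, 0.894 and 0.183 CPM in the villin-PPARD libraries. These replicates 1 and 4 had the lowest squamous sums of their group (156 and 199.9 CPM). No test was run on a gene that failed the filter.

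The hemidesmosome and laminin-332 partners of types XVII and VII, 11 genes that fasten epithelium to its basement membrane, were called higher for 6, 6 and 8 at 10, 25 and 55 weeks and lower for 1, 0 and 0. Their medians were 0.45, 0.47 and 0.64. Fermt1, the epithelial integrin activator kindlin-1, rose 1.37-, 1.49- and 1.65-fold at the 3 ages. Itga6, the hemidesmosome integrin alpha 6, was 1.98-fold higher at 55 weeks, so both moved in the direction opposite to Col7a1.

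The multiplexins moved apart. Col18a1 measured 10.6, 26.1, 23.8, 34.1 and 38.97 CPM in the WT and 55.6, 60.3, 70.2, 63.8 and 51.7 CPM in the villin-PPARD libraries at 10 weeks. By 25 weeks Col18a1 measured 23.2, 27.9, 35.4 and 64.1 CPM in the WT and 81.4, 83.7, 31.2 and 135 CPM in the villin-PPARD libraries. At 55 weeks Col18a1 measured 83.8, 67.3, 82.7, 84.8 and 83 CPM in the WT and 282, 356, 438, 257 and 308 CPM in the villin-PPARD libraries. The genotypes overlapped only at 25 weeks, where villin-PPARD replicate 3 lay under WT replicates 3 and 4, and the rise was 2.27-fold (1.19 ± 0.31 (SE), adjusted p = 0.00511), 2.18-fold (1.12 ± 0.35 (SE), adjusted p = 0.0126) and 4.09-fold (2.03 ± 0.31 (SE), adjusted p = 4.66e-06). Without villin-PPARD replicate 4 the 25-week value was 0.76 and not called (adjusted p = 0.0919). Col18a1 also rose with age in WT mice, by 1.60 from 10 to 55 weeks (log2, adjusted p = 0.00203). Per kilobase of exon it ranked seventh among collagen genes in WT mice at 10 weeks and first in villin-PPARD mice at 55 weeks.

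Col15a1, its relative in vessel and muscle basement membranes, measured 8.48, 20.4, 17.3, 29.4 and 32.8 CPM in the WT and 13.8, 16.1, 21.3, 18.1 and 12.5 CPM in the villin-PPARD libraries at 10 weeks. By 25 weeks Col15a1 measured 10.9, 21.8, 25.6 and 38.4 CPM in the WT and 13, 15, 6.1 and 11.3 CPM in the villin-PPARD libraries. At 55 weeks Col15a1 measured 23.8, 32.2, 33.5, 29.8 and 24.6 CPM in the WT and 11.6, 8.82, 10.7, 14.6 and 11.2 CPM in the villin-PPARD libraries. It was lower at 25 weeks (-1.10 ± 0.34 (SE), adjusted p = 0.0123) and at 55 weeks (-1.33 ± 0.30 (SE), adjusted p = 0.000442), where no library overlapped, and not called at 10 weeks (-0.39 ± 0.30 (SE), adjusted p = 0.331). Within the second library set its 10-week value was -1.01 and called (adjusted p = 0.00590). Without WT replicate 4 the 25-week value was -0.78 and not called (adjusted p = 0.0827). The counts of Col18a1 to Col15a1 were 1.25 ± 0.0861 in WT against 3.74 ± 0.343 in villin-PPARD mice at 10 weeks (SD, n = 5 each). At 25 weeks they were 1.62 ± 0.382 against 7.21 ± 3.16 (n = 4 each), and at 55 weeks 2.86 ± 0.605 against 30.1 ± 10.2 (n = 5 each). The ranges of the genotypes did not overlap at any age. Per unit of the fibroblast marker sum, Col18a1 was 0.536 ± 0.0705 in WT and 2.47 ± 0.731 in villin-PPARD mice at 55 weeks (SD, n = 5 each).

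Both multiplexins are found in vessel walls. The 12 endothelial markers summed to 77.2 ± 22.3 CPM in WT against 121 ± 15.5 in villin-PPARD mice at 10 weeks (SD). At 25 weeks the sums were 77.5 ± 41.7 against 114 ± 29.7, and at 55 weeks 83.2 ± 15.6 against 85.9 ± 6.37. Of 11 tested, 1, 1 and 2 were higher and 0, 4 and 4 lower at the 3 ages. Their median log2 differences were -0.141, -0.593 and -0.355, although the sums were higher in villin-PPARD mice at 10 and 25 weeks. Of 6 pericyte markers 0 were higher and 1, 1 and 2 lower. The endothelial genes higher at 55 weeks were Tek (1.80 ± 0.38 (SE), adjusted p = 0.000278) and Vwf (1.16 ± 0.34 (SE), adjusted p = 0.00397), while 4 others of the 11 were lower. The part of vessel content in the Col18a1 and Col15a1 values was not tested.

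The multiplexins took 11.7% ± 0.287 of all collagen counts in WT mice at 55 weeks and 28.8% ± 2.94 in villin-PPARD mice (SD, n = 5 each). Over the same groups the fibril-forming share was 51.1% ± 1.34 and 40.7% ± 2.19 and the type VI share 15.8% ± 0.290 and 9.98% ± 1.196. At 10 weeks the multiplexin shares were 8.78% ± 0.970 and 11.1% ± 0.711. Summed over all 44 rows, collagen CPM was 536 ± 189 in WT against 698 ± 135 in villin-PPARD mice at 10 weeks (SD). At 25 weeks it was 614 ± 247 against 759 ± 291, and at 55 weeks 933 ± 71.4 against 1177 ± 197. The 55-week ranges overlapped, 848 to 1034 CPM in WT and 988 to 1513 CPM in villin-PPARD mice. Without TMM factors, as a share of all counts, they were 0.0767% to 0.0959% and 0.135% to 0.183% and did not overlap, so the size of this difference depended on the scaling.

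**Figure D4:**
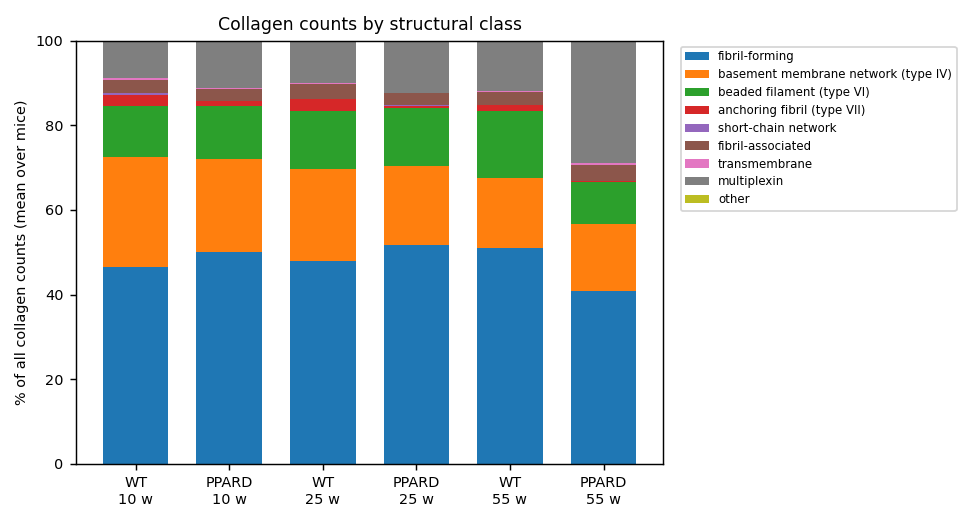
Share of all collagen counts taken by each structural class, as the mean over the mice of a group, in stacked bars that fill the axis from 0 to 100%. The grey segment at the top, the multiplexins, is 28.8% in villin-PPARD mice at 55 weeks and between 8.78% and 12.1% in the other 5 groups.

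Among fibril-associated chains, Col12a1 and Col20a1 differed in opposite directions at every age. Col12a1, which sits on type I fibrils, measured 0.519, 2.07, 1.99, 2.5 and 2.02 CPM in the WT and 2.46, 3.3, 6.82, 3.86 and 2.15 CPM in the villin-PPARD libraries at 10 weeks. By 25 weeks Col12a1 measured 0.489, 1.67, 2.16 and 3.13 CPM in the WT and 6.79, 6.9, 1.93 and 10.6 CPM in the villin-PPARD libraries. At 55 weeks Col12a1 measured 4.95, 3.92, 4.01, 4.3 and 4.61 CPM in the WT and 22.6, 21.5, 22.98, 30.6 and 27.5 CPM in the villin-PPARD libraries. It was 2.11-fold higher at 10 weeks (1.07 ± 0.40 (SE), adjusted p = 0.0418), 3.37-fold at 25 weeks (1.75 ± 0.45 (SE), adjusted p = 0.0031) and 5.71-fold at 55 weeks (2.51 ± 0.35 (SE), adjusted p = 9.86e-07), with no overlap at 55 weeks only. Leaving out any of 7 of the 10 libraries ended the 10-week call, and within the second set of libraries its value was 0.41 and not called. Summing WT replicates 2 and 3 also ended the 10-week call (1.11, adjusted p = 0.0591). Its counts per count of Col1a1 were 0.0350 ± 0.00564 in WT and 0.163 ± 0.0308 in villin-PPARD mice at 55 weeks (SD, n = 5 each).

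Col20a1, a little-studied member of the class, measured 4.15, 6.31, 5.73, 4.12 and 4.79 CPM in the WT and 1.58, 1.98, 1.38, 1.58 and 1.32 CPM in the villin-PPARD libraries at 10 weeks. By 25 weeks Col20a1 measured 7.28, 5.31, 4.32 and 6.14 CPM in the WT and 0.43, 1.37, 1.39 and 0.894 CPM in the villin-PPARD libraries. At 55 weeks Col20a1 measured 3.5, 5.84, 9.62, 4.26 and 5.6 CPM in the WT and 3.08, 0.773, 0.539, 1.38 and 1.31 CPM in the villin-PPARD libraries. No library overlapped at any age, and Col20a1 was 3.21-fold lower (-1.68 ± 0.33 (SE), adjusted p = 0.000262), 5.61-fold lower (-2.49 ± 0.39 (SE), adjusted p = 1.64e-05) and 3.89-fold lower (-1.96 ± 0.32 (SE), adjusted p = 5.91e-06). Its difference did not change by the test between ages (adjusted p = 0.544 from 10 to 25 and 0.68 from 10 to 55 weeks), nor did its WT level with age (adjusted p = 0.755).

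**Figure D5:**
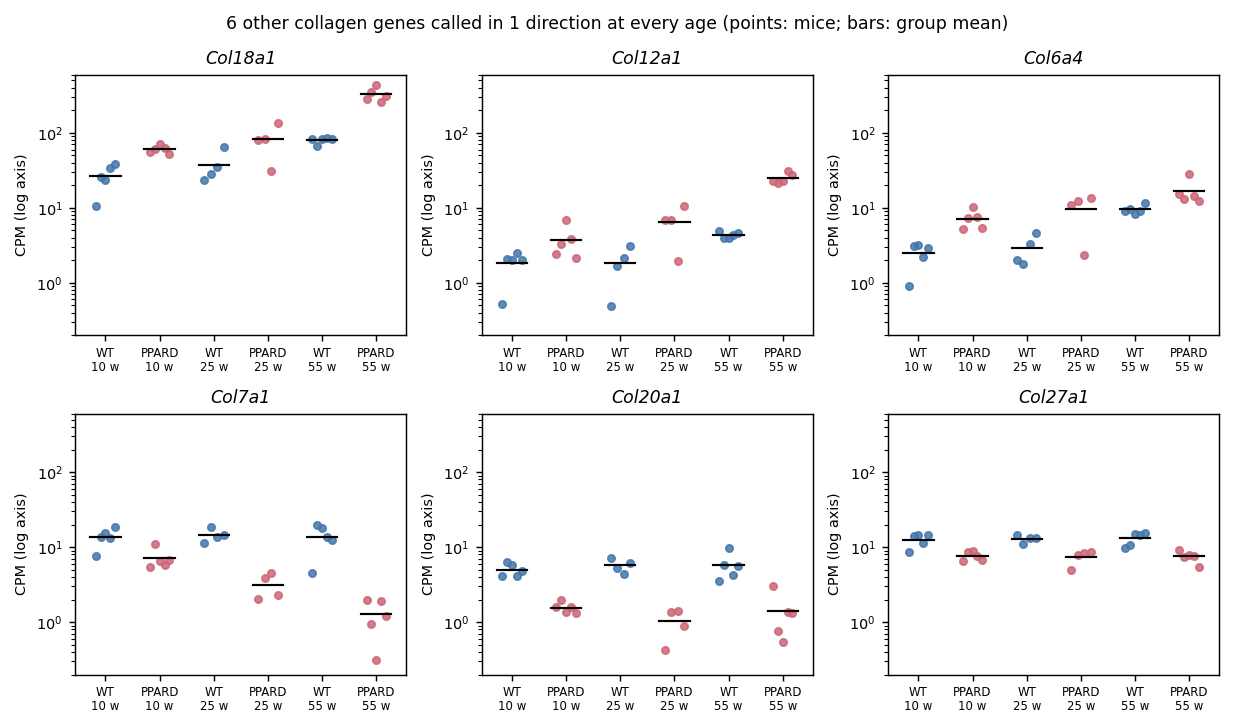
CPM in each library on a shared log scale of the 6 other collagen genes called in 1 direction at every age, beside Col4a3 and Col4a4. Col18a1, Col12a1 and Col6a4 in the upper row were higher in villin-PPARD mice (red) than in WT mice (blue), and Col7a1, Col20a1 and Col27a1 in the lower row were lower. Bars are group means, and villin-PPARD replicate 3 at 25 weeks is the low red point among the 4 of its age in the upper row.

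Col9a3, a chain of the cartilage-type collagen IX, changed sides with age. Col9a3 measured 1.51, 2.07, 1.99, 1.46 and 1.93 CPM in the WT and 3.03, 4.14, 2.98, 3.86 and 3.91 CPM in the villin-PPARD libraries at 10 weeks. By 25 weeks Col9a3 measured 2.45, 1.67, 2.21 and 2.96 CPM in the WT and 2.34, 3.76, 2.47 and 3.13 CPM in the villin-PPARD libraries. At 55 weeks Col9a3 measured 2.1, 2.59, 2.85, 2.54 and 3.51 CPM in the WT and 2.02, 1.5, 0.616, 1.15 and 1.05 CPM in the villin-PPARD libraries. It was higher at 10 weeks (1.0 ± 0.23 (SE), adjusted p = 0.00106) and lower at 55 weeks (-1.08 ± 0.23 (SE), adjusted p = 0.000172), both without overlap, and the change between these ages was -2.08 ± 0.32 (SE), adjusted p = 6.46e-06. Col9a3 overlaps Tcfl5 by 234 exon bases on the other strand, and reads of the 2 genes could not be separated by strand. Col14a1, which spaces fibrils, was lower at 25 weeks (-1.62 ± 0.59 (SE), adjusted p = 0.0297), a call that 5 of 8 left-out libraries ended. At 55 weeks Col14a1 measured 1.15, 1.03, 2.05, 1.67 and 0.861 CPM in the WT and 6.24, 1.18, 2.27, 6.44 and 5.59 CPM in the villin-PPARD libraries, 3.26-fold higher (1.70 ± 0.43 (SE), adjusted p = 0.00132), and 1 villin-PPARD library, replicate 2, lay within the WT range. Col16a1 was called at no age in the main fit, but its genotype difference was lower at 55 than at 10 weeks (-0.95 ± 0.33 (SE), adjusted p = 0.0243). That call was lost with library size alone (-0.58, adjusted p = 0.142), with no filter (adjusted p = 0.0505) and without WT replicate 3 of 10 weeks (adjusted p = 0.0506). At 10 weeks Col16a1 was at 0.58 (adjusted p = 0.0596). There 8 of 22 alternatives called it higher, limma-voom among them (0.77, adjusted p = 0.00152), and at 55 weeks 2 of 21 called it lower.

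Of the transmembrane chains, Col23a1 rose at 55 weeks and Col13a1 was called at no age. Col23a1 measured 0.26, 0.53, 0.424, 0.677 and 0.42 CPM in the WT and 0.252, 0.18, 0.401, 0.351 and 0.33 CPM in the villin-PPARD libraries at 10 weeks. By 25 weeks Col23a1 measured 0.183, 0.104, 0.736 and 0.216 CPM in the WT and 0.526, 0.342, 0.314 and 0.223 CPM in the villin-PPARD libraries. At 55 weeks Col23a1 measured 0.3, 0.37, 0.356, 0.407 and 0.738 CPM in the WT and 6.3, 1.55, 1.89, 5.07 and 2.33 CPM in the villin-PPARD libraries, 7.83-fold higher (2.97 ± 0.40 (SE), adjusted p = 1.99e-07) with no overlap. Villin-PPARD replicates 1 and 4, which held the Col17a1 counts, were also the highest for Col23a1. The change of its difference was 3.53 ± 0.63 (SE), adjusted p = 5.29e-05 from 10 to 55 weeks and 2.90 ± 0.71 (SE), adjusted p = 0.0027 from 25 to 55 weeks. Without WT replicate 3 of 25 weeks the latter was 1.98 and not called (adjusted p = 0.0827).

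Col26a1, a small collagen of developing gonads, measured 0.216, 0.265, 0.382, 0.417 and 0.084 CPM in the WT and 1.26, 0.959, 0.935, 1.1 and 0.77 CPM in the villin-PPARD libraries at 10 weeks, 3.46-fold higher (1.79 ± 0.39 (SE), adjusted p = 0.000687) with no overlap at low levels. By 25 weeks Col26a1 measured 0.306, 0.625, 0.295 and 0.216 CPM in the WT and 0.335, 0.342, 0.494 and 1.04 CPM in the villin-PPARD libraries. At 55 weeks Col26a1 measured 0.3, 0.296, 0.267, 0.0905 and 0.308 CPM in the WT and 0.598, 0.091, 0.423, 0.335 and 0.366 CPM in the villin-PPARD libraries. It was not called at these ages (adjusted p = 0.276 and 0.238). Col8a1, a short-chain network collagen of vessel walls, was lower at 55 weeks (-1.06 ± 0.38 (SE), adjusted p = 0.0165), and with library size alone was at -0.65 and not called (adjusted p = 0.124). The 11 genes that did not pass the filter were Col2a1, Col6a6, Col8a2, Col9a1, Col9a2, Col10a1, Col17a1, Col19a1, Col22a1, Col25a1 and Col28a1. Of these, Col10a1, the collagen of growing cartilage, had 3 to 13 counts in each villin-PPARD library at 55 weeks and 0 to 4 in the other 23 libraries.

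From 10 to 55 weeks 10 collagen genes were higher and 2 lower in WT mice, against 6.43% and 6.26% of all genes. All 5 tested type VI chains were among the 10 (from 0.92 for Col6a2 to 2.08 for Col6a5), with Col1a1, Col5a2, Col12a1, Col16a1 and Col18a1. The 2 that fell were Col4a3 and Col4a4. Without any 1 of WT replicates 1, 2 and 3 at 10 weeks or WT replicate 3 at 55 weeks 7 genes were called in place of 12, and Col1a1, Col5a2, Col6a1, Col6a2 and Col12a1 lost their calls. With a term for the library set 6 were called, and with no filter on low counts 7. With library size alone 14 were higher and 2 lower, and 69.9% rather than 50.7% of all calls were higher. In WT mice 3 of 13 fibroblast markers were also higher at 55 than at 10 weeks and none lower. Of leukocyte markers 4 of 7, of squamous markers 4 of 11 and of erythroid markers 2 of 4 were higher there too, and the part of these cells in the collagen values was not tested.

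In villin-PPARD mice 9 collagen genes were higher and 7 lower at 55 than at 10 weeks, against 27.2% and 24.5% of all genes. With library size alone 17 were higher and 6 lower, Col1a1, Col1a2, Col4a1, Col4a5, Col5a1, Col6a3, Col6a5 and Col16a1 being added and Col4a6 lost, and 83.1% rather than 52.6% of all calls were higher. The highest rises were Col23a1 (3.45 ± 0.41 (SE), adjusted p = 2.42e-08), Col12a1 (2.73 ± 0.35 (SE), adjusted p = 3.38e-07), Col14a1 (2.53 ± 0.46 (SE), adjusted p = 3.08e-05) and Col18a1 (2.44 ± 0.32 (SE), adjusted p = 4.49e-07). Those that fell were Col4a3 (-4.93), Col4a4 (-4.57), Col7a1 (-2.45), Col9a3 (-1.49), Col26a1 (-1.41), Col4a6 (-0.91) and Col11a1, which reached 0 counts. From 10 to 25 weeks no collagen gene was called in WT mice or in villin-PPARD mice, where edgeR called 0.0126% and 2.81% of all genes. At an unadjusted p under 0.05 there were 1 in WT and 4 in villin-PPARD mice, and DESeq2 called 0 and 3. Without villin-PPARD replicate 3 of 25 weeks edgeR called 4 in villin-PPARD mice.

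The genotype difference itself changed from 10 to 55 weeks for 11 of the 33 collagen genes, 3 toward higher and 8 toward lower, against 36.4% of all genes. It rose for Col23a1, Col14a1 and Col12a1 (1.44 ± 0.54 (SE), adjusted p = 0.0373), and fell for Col4a3, Col4a4, Col7a1, Col9a3, Col4a6 (-1.70 ± 0.41 (SE), adjusted p = 0.00159), Col6a5 (-1.34 ± 0.48 (SE), adjusted p = 0.0296), Col16a1 and Col11a1. With library size alone 5 moved toward higher and 6 toward lower, Col18a1 (1.18, adjusted p = 0.0261) and Col5a3 (1.36, adjusted p = 0.0126) being added and Col16a1 and Col6a5 (-0.99, adjusted p = 0.0879) lost, and 79.6% rather than 50.5% of all calls were toward higher. The Col12a1 change lost its call in 12 of 20 fits that left out 1 library and with no filter (adjusted p = 0.0942), and the Col6a5 change in 9 of 20 and with no filter (adjusted p = 0.0667). From 25 to 55 weeks 7 changed, against 28.9% of all genes, and these were Col14a1 (3.33 ± 0.73 (SE), adjusted p = 0.001), Col23a1, Col4a3, Col4a4, Col9a3, Col4a6 (-1.20 ± 0.43 (SE), adjusted p = 0.0367) and Col11a1. The Col4a6 change was lost in 10 of 18 fits that left out 1 library and with library size alone (-0.96, adjusted p = 0.0757), under which Col5a3 was added (1.43, adjusted p = 0.0205) and 73.3% rather than 49.3% of all calls were toward higher. From 10 to 25 weeks none changed by edgeR or DESeq2, 2 had an unadjusted p under 0.05, and 0.00632% of all genes were called.

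Enzymes that modify and crosslink collagen, 33 genes of which 30 were tested, were higher for 1, 4 and 8 and lower for 6, 8 and 13 at 10, 25 and 55 weeks. The median was -0.04, -0.24 and -0.44, beside -0.03, -0.01 and 0.03 over all genes. Among those that fell at 55 weeks were P3h4, a partner of lysyl hydroxylase (7.26-fold, adjusted p = 3.86e-15), P4ha2, a prolyl hydroxylase subunit (3.79-fold, adjusted p = 9.89e-12), and Serpinh1, the collagen chaperone HSP47 (3.41-fold, adjusted p = 2.65e-11). Colgalt1, which adds galactose to collagen, was 1.97-fold higher at 55 weeks. The crosslinking enzyme gene Loxl4 was 6.09-fold higher at 25 weeks (adjusted p = 0.000858), and Plod2, a lysyl hydroxylase, was 2.26-fold lower at 10 weeks (adjusted p = 0.000791).

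Receptors for collagen, 10 genes tested, were higher for 4, 3 and 4 and lower for none at the 3 ages, with medians of 0.36, 0.08 and 0.57. Itga2, the alpha chain of a collagen-binding integrin, was 2.91-fold higher at 10 weeks (1.54 ± 0.57 (SE), adjusted p = 0.0385), 19.1-fold at 25 weeks (4.26 ± 0.62 (SE), adjusted p = 1.22e-05) and 35.9-fold at 55 weeks (5.17 ± 0.47 (SE), adjusted p = 1.02e-09). Itgb1, its beta partner, rose 1.35-, 1.65- and 1.66-fold. Adgrg1, an adhesion receptor known to bind type III collagen, rose 1.65-, 1.51- and 1.66-fold. Itga1, a further collagen-binding chain, was called at 55 weeks, 2.91-fold higher.

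Collagen-degrading enzymes, 7 tested, were higher for 1, 3 and 5 and lower for none, with medians of 0.46, 0.57 and 1.67. At 55 weeks the collagenase Mmp13 was 17.8-fold higher (4.16 ± 0.50 (SE), adjusted p = 1.05e-07), the neutrophil collagenase Mmp8 31.6-fold (4.98 ± 0.79 (SE), adjusted p = 3.49e-06), the gelatinase Mmp9 4.67-fold (2.23 ± 0.29 (SE), adjusted p = 1.45e-07) and Mmp14, a membrane-bound collagenase, 3.18-fold (1.67 ± 0.30 (SE), adjusted p = 2.84e-05). Fap, a protease of activated fibroblasts, rose 3.16-fold at 10 weeks and 7.98-fold at 25 weeks. Of 7 leukocyte markers 1, 1 and 6 were higher at the 3 ages, and their sum was 55.5 ± 2.92 CPM in WT and 129.6 ± 31.8 in villin-PPARD mice at 55 weeks (SD, n = 5 each), whose part in the enzyme values was not tested.

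Ligands, receptors and targets of TGF-beta and other fibrogenic factors, 16 genes, were higher for 4, 6 and 8 and lower for 2, 3 and 5, with medians of 0.21, 0.34 and 0.45. Tgfb1, a ligand that raises fibrillar collagen in many tissues, was 3.7-fold higher at 55 weeks (1.89 ± 0.14 (SE), adjusted p = 2.41e-12). Its receptor Tgfbr2 was 2.12-fold higher and Inhba, the activin A subunit, 8.05-fold, while Pdgfa was 2.05-fold lower (adjusted p = 1.07e-10, 3.82e-08 and 1.45e-09). Beside these, Col1a1, Col1a2 and Col3a1 at 55 weeks were at 0.31, 0.14 and -0.49 and not called.

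Markers of other cells that a scrape can hold were tested too. Erythroid markers were lower for 2 of 4 at 10 weeks and 4 of 4 at 25 and 55 weeks. Of 3 Schwann and glial markers 1 was lower at 10 weeks, none were called at 25 weeks, and 1 was higher and 1 lower at 55 weeks. Of 2 mesothelial markers 1 was lower at 10 weeks, 1 higher at 25 weeks, and 1 higher and 1 lower at 55 weeks, and the 1 adipocyte marker tested was higher at 10 and 25 weeks and lower at 55 weeks. Corpus epithelial markers, 14 tested, were higher for 4, 4 and 3 and lower for 3, 4 and 9. The p-values measure the spread between mice.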

How the data were processed

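Poly-A RNA of scraped corpus epithelial cells was sequenced from 28 mice on an Illumina HiSeq4000 as paired ends, with a kit that does not mark strand, per the labels' protocols. The authors deposited raw counts per gene symbol in 1 table. The submitters' processing notes name TopHat2 2.0.14 and HTSeq 0.6.1, with mm10 as the build, and DESeq2. Which annotation HTSeq read, and with which strand setting, is not given in the sources used here. Reads carry no molecular identifiers, so counting errors are lower limits. Every row names a gene.

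Counts were taken as deposited. Genes were kept with filterByExpr by group, scaled with TMM factors and tested with edgeR 4.0.16 (quasi-likelihood, robust, R 4.3.3) in 1 model of the 28 libraries that held 6 group means. The 10 contrasts were adjusted over 15812 genes by Benjamini-Hochberg, and the SE is the log2 difference divided by the root of F. CPM are counts over library size times TMM factor. A group with 0 counts was set to a floor of 3 counts. Lengths are exon lengths of GENCODE on GRCm38, the build of mm10, and promoter sequences are RefSeq's. The steps were tested on simulated data. Alternatives were limma 3.58.1, DESeq2 1.42.0, other scaling and filters, terms for replicate and library set, and leaving out each library. WT replicates 2 and 3 of 10 weeks were also summed.

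The members, classes, gene lists and tests were chosen with earlier results of these data known. Values in every library are given for Col1a1, Col1a2, Col3a1, Col4a1, Col4a2, Col6a1, Col6a2, Col7a1, Col15a1, Col17a1 and Col18a1 and for the 6 called genes of lowest adjusted p in each genotype comparison, and of each pathway list the 4 of lowest adjusted p could be named. Other genes given with values, such as Col4a5, Col4a6, Col5a3, Col6a3, Col6a5, Col8a1, Col10a1, Col14a1, Col16a1, Atp4a and Thy1, and the ratios between genes were chosen after their values were seen.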

Additional observations from a re-analysis of the deposited data

Results flagged for a closer look

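Of 126 groups of 4 or 5 libraries looked at, over 21 collagen genes, 13 held a library that stood apart from the rest of its group by Dixon's criterion, where chance gives about 1 in 20. Villin-PPARD replicate 3 at 25 weeks was low for Col3a1 (47.9 CPM), Col4a1 (29.6 CPM) and Col4a2 (17.3 CPM), and its fibroblast marker sum was the lowest of its group (63.4 CPM). Villin-PPARD replicate 3 at 55 weeks was high for Col1a2 (196 CPM), Col6a1 (60.3 CPM), Col6a2 (55.1 CPM) and Col6a4 (28.4 CPM), while its fibroblast sum (140.4 CPM) lay within the range of its group. Villin-PPARD replicate 2 at 10 weeks was high for Col7a1 (11.03 CPM). In WT mice replicate 1 at 10 weeks was low for Col12a1 (0.519 CPM), replicate 4 at 25 weeks was the only one of its group with a count of Col17a1 (0.0539 CPM), and at 55 weeks replicate 2 was low for Col18a1 (67.3 CPM), replicate 4 low for Col26a1 (0.0905 CPM) and replicate 5 high for Col23a1 (0.738 CPM).

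The genotype difference changed between ages, by edgeR's test of the change itself, in 18 cases. From 10 to 55 weeks the change on the log2 scale was -4.01 for Col4a3, -3.62 for Col4a4, -1.70 for Col4a6, -2.46 for Col7a1, -2.08 for Col9a3, -1.34 for Col6a5, -0.95 for Col16a1, 1.44 for Col12a1, 2.41 for Col14a1 and 3.53 for Col23a1. From 25 to 55 weeks it was -3.75 for Col4a3, -3.28 for Col4a4, -1.20 for Col4a6 (a call that 10 of 18 left-out libraries ended), -1.39 for Col9a3, 3.33 for Col14a1 and 2.90 for Col23a1. For Col11a1 the fitted changes of -5.53 and -5.43 rest on 0 counts in villin-PPARD mice at 55 weeks, depend on the prior count and are no bound.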

How the results depend on the processing

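Col4a5 at 55 weeks was not called at -0.06 and called at 0.34 with library size alone (adjusted p = 0.0445). Among the genes chosen to be given in every library, which leave out Col4a5, no value changed direction past its threshold. Of the counts of called genes, 240 values under the alternatives lay within 1.5 times the main one and 20 did not. Genes called higher at 55 weeks were 12 with library size alone (7 in the main fit). Those called higher at 10 weeks were 11 with limma-voom, 3 in the first library set, 3 in the second and 15 with the fibroblast term, which was chosen after seeing the data (6), and those lower were 3 and 2 within the sets (5). At 25 weeks, higher calls were 2 with only the compared groups, 1 in the first set and 8 with the fibroblast term (4). WT mice at 55 against 10 weeks gave 7 without the filter and 6 with the library-set term (12), and villin-PPARD mice at 25 against 10 weeks gave 3 with DESeq2 (0); beyond what each alternative leaves out, the cause was not tested. Leaving out 1 library gave 5 to 8 higher and 4 to 5 lower genes at 10 weeks, 2 to 8 and 5 to 8 at 25 weeks, and 5 to 7 and 9 to 13 at 55 weeks. With age it gave 7 to 16 (WT, 10 to 55 weeks), 13 to 17 (villin-PPARD) and 0 to 4 (villin-PPARD, 10 to 25 weeks). The change of the difference gave 8 to 12 from 10 to 55 weeks and 6 to 10 from 25 to 55 weeks. Calls lost in none of the refits that tested the gene were 9 of 11, 7 of 11 and 14 of 18 at the 3 ages, the last with Col11a1, which was tested in 8 of the 10. With the replicate block Col1a1 at 10 weeks was called at 0.75 (adjusted p = 0.0496).

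Replicate numbers recur across groups, and same-numbered libraries deviated together in 3 of 14 pairs (correlation over 0.1, range -0.42 to 0.23), all at 10 weeks. The main fit did not use the numbers as pairs. Correlations within groups of 4 or 5 libraries cannot show whether littermates share a number. With the replicate block, 8 collagen genes were higher and 5 lower at 10 weeks. At 25 weeks 4 were higher and 7 lower, at 55 weeks 6 higher and 12 lower, and Col6a4 at 55 weeks was at 0.78 (adjusted p = 0.0540). Depth limits the 11 genes under the filter and the low counts of Col11a1, Col26a1 and Col23a1.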
